A study of Homo sapiens with 4 samples.

Results

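The 10 genes described here mark the epithelial or the mesenchymal state of a cell and were chosen by gene symbol, 10 of the 17687 genes named on the array. The epithelial genes are CDH1, EPCAM, CLDN1, CLDN4 and OCLN, and the mesenchymal genes are CDH2, VIM, ZEB1, ZEB2 and SNAI2. Each was read by 1 probe set. They were measured in DU145, a long-established line of human prostate carcinoma cells that need no androgen to grow, cultured for 48 h with vehicle, with No.10-3 at 5 µM, with 0.5 µM C-30 or with 2 µM C-30. Both compounds are described in the labels as inhibitors of PSF, a nuclear RNA-binding protein that acts in splicing and transcription. Each condition had 1 array, the vehicle array serves all 3 comparisons with vehicle, and no test, SD or p-value is given. All values are signals made by the authors with RMA and taken here as log2. The base is inferred, and the highest deposited value, 19.9, lies above the usual range of a scanner on that scale, so every fold and 2-fold count rests on this reading. A difference is the signal on 1 array minus that on another.

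Epithelial cells hold together through adherens junctions, built on E-cadherin, and tight junctions, built on claudins and occludin. In epithelial-mesenchymal transition, transcription factors of the ZEB and SNAI families bind E-box sequences in the promoters of such genes and repress them, while vimentin filaments and N-cadherin take over. Carcinoma cells often occupy states between these ends and express genes of both, and in prostate cancer the mesenchymal state is studied for its part in invasion and in the loss of androgen dependence.

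The signal of the cells was checked against marker genes. All 4 epithelial keratins lay above the background level on every array, where background is the signal that 95% of the 612 negative controls of that array do not exceed (7.32 with vehicle, 7.06 with No.10-3, and 7.11 and 7.15 with 0.5 and 2 µM C-30). The keratins lay between 10.84 and 14.18 with vehicle, and their median difference from vehicle was 0.45 with No.10-3, -0.08 with 0.5 µM C-30 and -0.57 with 2 µM C-30. None of 5 leukocyte, 5 endothelial and 4 prostate luminal markers was above background on any array. Of 6 fibroblast markers, 1 was above it, on the array of 0.5 µM C-30 at 7.13. The 63 ERCC spike probe sets differed from vehicle with a robust SD of 0.13 for No.10-3, 0.17 for 0.5 µM C-30 and 0.27 for 2 µM C-30. Of the 2197 probe sets whose names mark them as positive controls, taken with no minimum signal, 6.55%, 8.06% and 11.3% nevertheless passed 2-fold, so a 2-fold difference on these arrays is not by itself beyond the spread among controls.

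Since ZEB and SNAI factors act through the E-box CACCTG or its reverse complement CAGGTG, promoters were searched for both words. RefSeq windows on GRCh38.p14, from 250 bases before to 50 bases after a start site, were found for 7 of the 10 genes, with 15 windows in all. Of these, 4 windows held the E-box, 2 of 2 for OCLN and 2 of 7 for ZEB1, and the windows of CLDN1, CLDN4, CDH2, VIM and ZEB2 held none. Of all 35116 windows of this length, 20.6% held it. The windows below belong to the 2 claudin genes of the set, CLDN4 and CLDN1, to the occludin gene OCLN and to ZEB1. CLDN4, within background throughout, and OCLN were lower on every treated array, and CLDN1 was higher on each of them. For OCLN and ZEB1 the window with the most matches is printed. Capitals mark E-boxes, and each is written on the gene's own strand.
CLDN4, chr7:73830746-73831045, plus strand: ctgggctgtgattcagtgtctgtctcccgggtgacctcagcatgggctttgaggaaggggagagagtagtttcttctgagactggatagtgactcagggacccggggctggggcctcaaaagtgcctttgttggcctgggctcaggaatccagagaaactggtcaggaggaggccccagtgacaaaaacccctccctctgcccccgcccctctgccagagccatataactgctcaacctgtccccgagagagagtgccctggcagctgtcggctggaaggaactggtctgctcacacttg
CLDN1, chr3:190322397-190322696, minus strand: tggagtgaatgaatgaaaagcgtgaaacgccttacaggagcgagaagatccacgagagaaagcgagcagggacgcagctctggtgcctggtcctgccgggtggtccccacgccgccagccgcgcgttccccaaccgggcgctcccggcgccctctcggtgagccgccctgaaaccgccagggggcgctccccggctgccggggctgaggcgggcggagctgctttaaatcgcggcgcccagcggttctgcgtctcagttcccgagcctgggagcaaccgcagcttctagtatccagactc
OCLN, chr5:69492540-69492839, plus strand: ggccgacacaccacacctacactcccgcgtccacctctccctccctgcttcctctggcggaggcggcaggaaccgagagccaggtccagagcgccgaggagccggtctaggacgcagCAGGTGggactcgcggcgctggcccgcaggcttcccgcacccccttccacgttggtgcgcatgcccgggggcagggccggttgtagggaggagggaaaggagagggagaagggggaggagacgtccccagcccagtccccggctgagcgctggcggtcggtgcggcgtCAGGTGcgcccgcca
ZEB1, chr10:31318966-31319265, plus strand: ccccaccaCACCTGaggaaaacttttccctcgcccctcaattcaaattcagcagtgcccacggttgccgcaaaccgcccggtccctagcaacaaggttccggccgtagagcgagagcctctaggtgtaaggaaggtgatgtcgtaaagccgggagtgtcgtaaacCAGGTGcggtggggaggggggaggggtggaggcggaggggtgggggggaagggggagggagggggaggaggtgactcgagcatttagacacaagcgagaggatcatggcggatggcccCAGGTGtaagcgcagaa
In the OCLN window the matches begin at -133 and 35 from the start site, and in the ZEB1 window at -242, -85 and 33. A match describes these letters only, and no binding was measured.

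On the arrays, 4 of the 10 genes were above background in all conditions: EPCAM, CLDN1, OCLN and VIM. ZEB1 was above background on the 3 treated arrays but not with vehicle. CDH1, CLDN4, CDH2, ZEB2 and SNAI2 stayed under it on all 4 arrays, so differences in these 5 genes lie within the range of the negative controls and a low signal does not show that the transcript was absent. In these bulk RNA samples, fewer cells of a state and less RNA per cell cannot be told apart.

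**Figure D1:**
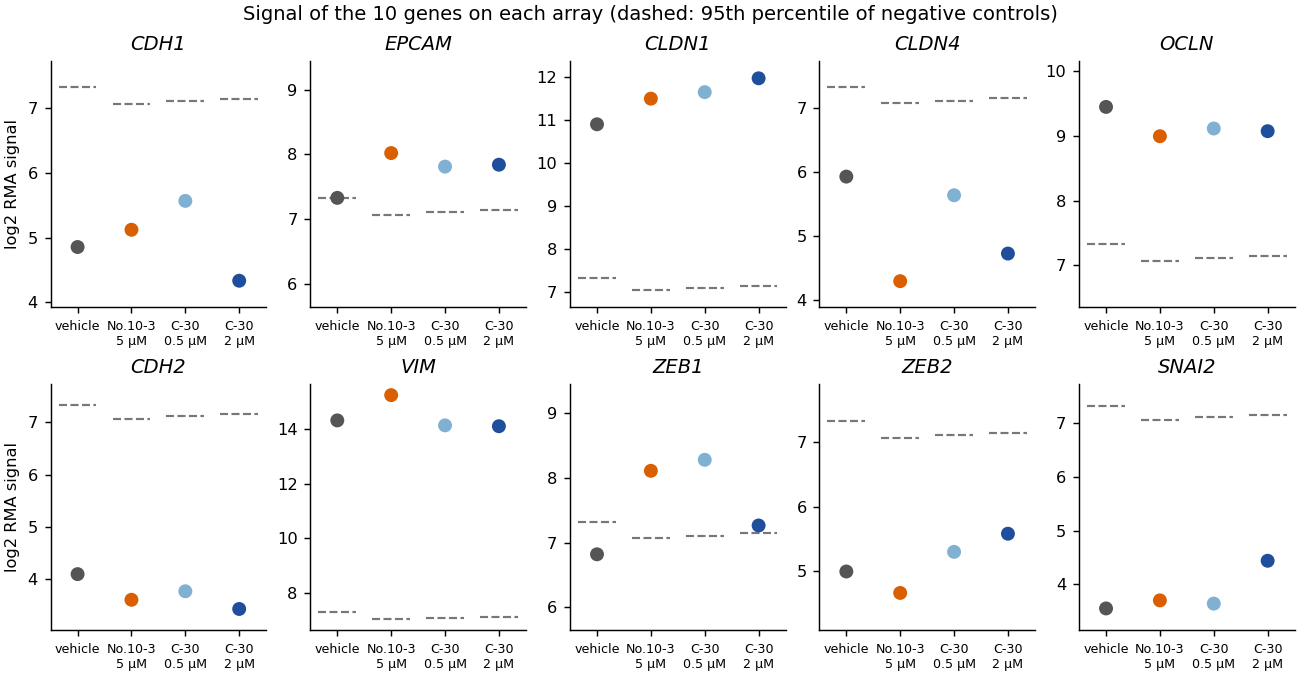
Log2 RMA signal (vertical axis) of each of the 10 genes on the 4 arrays (horizontal axis), 1 point per array, with a dashed bar at the 95th percentile of that array's negative controls; the vertical scale differs between panels. CLDN1 ranges from 10.91 with vehicle to 11.98 with 2 µM C-30, VIM stands out with No.10-3 at 15.22, and ZEB1 crosses the background level.

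By sign alone, neither state moved as a block across the 10 genes, but 5 of the 10 were within background on every array. With No.10-3, 3 epithelial and 3 mesenchymal genes were higher than vehicle and 2 of each were lower. The same numbers held with 0.5 µM C-30, and with 2 µM C-30 2 epithelial and 3 mesenchymal genes were higher. Among the genes above background on any array, EPCAM, CLDN1, VIM and ZEB1 were higher with No.10-3 and OCLN was lower. With either dose of C-30, EPCAM, CLDN1 and ZEB1 were higher and OCLN and VIM were lower, VIM by little (-0.18 and -0.21). A gene entered the counts of 2-fold differences (1 or more on the log2 scale in either direction) when the higher of its 2 signals reached the floor of 5.56, the median of named probe sets. With No.10-3, 6 of the 10 passed the floor and 2 passed 2-fold, ZEB1 upwards and CLDN4 downwards, where 5.68% of all 9219 genes past the floor did so (4.36% higher and 1.32% lower). The median of the 6 genes was 0.64 and that of all 10 was 0.21, beside 0.05 for all genes past the floor. With 0.5 µM C-30, 7 passed the floor and ZEB1 alone passed 2-fold, beside 6.17% of 9267 genes (3.4% higher and 2.77% lower), and the medians were 0.48 for the 7, 0.20 for the 10 and -0.04 for all genes. With 2 µM C-30, 7 passed the floor and 2 passed 2-fold, CLDN1 upwards and CLDN4 downwards, beside 10.8% of 9319 genes (4.67% higher and 6.15% lower), with medians of 0.45 for the 7, 0.12 for the 10 and -0.06 for all genes. With counts of 1 or 2 genes, these shares cannot be set apart from those of all genes. CLDN4 was within background on every array, so its entries in these counts rest on signals in the range of the negative controls. CDH1 passed the floor with 0.5 µM C-30 only through its treated signal (5.57, vehicle 4.85). ZEB2 did so with 2 µM C-30 (5.58, vehicle 5.00). Both were within background, so each median of 7 genes includes a gene admitted by the array where it was high. When every array was centred on its genes past the floor, the overall median with No.10-3 shifted by -0.10, which took the share of 2-fold genes that were higher from 76.7% to 59.9%, and with 2 µM C-30 from 43.2% to 54.7%. It left the same 2-fold counts of the 10 genes in all 3 comparisons with vehicle.

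**Figure D2:**
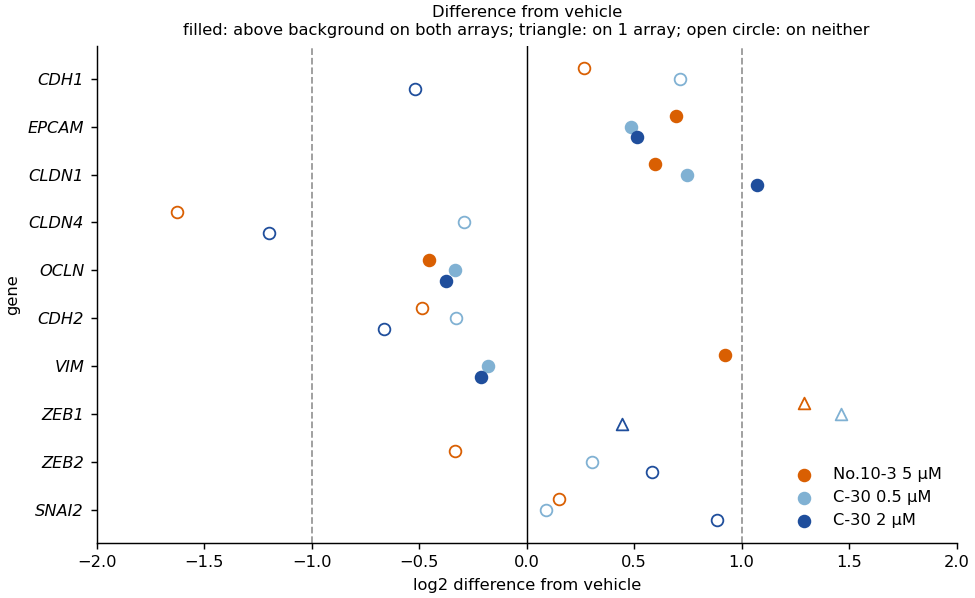
Log2 difference from vehicle (horizontal axis) of each gene (vertical axis) for the 3 treated arrays, coloured by treatment; filled circles are above background on both arrays, triangles on 1 and open circles on neither, and dashed lines mark 2-fold. CLDN1 at 1.07 with 2 µM C-30 is the only filled point past 2-fold, and ZEB1 passes it at 1.29 and 1.46 with No.10-3 and 0.5 µM C-30.

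CLDN1 (chromosome 3, 190305707 to 190322446), which encodes claudin-1, a strand-forming protein of tight junctions, had the largest differences among the epithelial genes above background with both doses of C-30. Its signal was 10.91 with vehicle, 11.50 with No.10-3, 11.66 with 0.5 µM C-30 and 11.98 with 2 µM C-30. All 3 treated arrays lay above vehicle and the higher dose of C-30 lay above the lower one. The differences were 0.60, 0.75 and 1.07, the last of them 2.10-fold. Of the 5092 genes above background with both vehicle and 2 µM C-30, 2.30% had a larger difference, and of the 5191 so measured with 0.5 µM C-30, 5.43%. With No.10-3 the share was larger, 11.7% of 5280 genes.

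CLDN4 (chromosome 7, 73830996 to 73832690) encodes another claudin, common in simple epithelia, and stood on the opposite side. Its signal was 5.93 with vehicle, 4.30 with No.10-3, 5.64 with 0.5 µM C-30 and 4.73 with 2 µM C-30. The vehicle value is the highest of the 4, and the lower dose of C-30 lay close to it. The differences were -1.63, -0.29 and -1.20, all within background, the vehicle value lying at percentile 85.5 of the negative controls and the No.10-3 value at 57.7. The differences of CLDN1 and CLDN4 had opposite signs on each treated array, but those of CLDN4 lie between signals within background.

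OCLN (chromosome 5, 69492547 to 69558104), which encodes occludin, a membrane protein of the same junctions, gave 9.45 with vehicle, 8.99 with No.10-3, 9.11 with 0.5 µM C-30 and 9.07 with 2 µM C-30. The treated arrays lay within 0.12 of each other and all under vehicle. The differences of -0.45, -0.33 and -0.38 did not reach 1.5-fold. Of the genes above background on both arrays, 12.0% were lower still with No.10-3. With 0.5 and 2 µM C-30, 29.96% and 31.89% of such genes were lower still. RefSeq lists a transcribed pseudogene, OCLNP1, on the same chromosome, and probes that read both copies could blur this value.

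EPCAM (chromosome 2, 47369311 to 47387020), the surface adhesion protein used to identify epithelial and carcinoma cells, had signals of 7.33 with vehicle, 8.02 with No.10-3, 7.81 with 0.5 µM C-30 and 7.84 with 2 µM C-30. Vehicle lay at the background level and the treated arrays above it. The differences were 0.69, 0.48 and 0.51, under 2-fold. CDH1 (chromosome 16, 68737292 to 68835537), the E-cadherin gene, gave 4.85 with vehicle, 5.12 with No.10-3, 5.57 with 0.5 µM C-30 and 4.33 with 2 µM C-30. These values sit between percentiles 56.7 and 83.5 of the negative controls, and the 2 doses of C-30 lay on opposite sides of vehicle.

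Of the mesenchymal genes, VIM (chromosome 10, 17228241 to 17237593), which encodes the intermediate filament protein vimentin, was far above background on every array. Its signal was 14.30 with vehicle, 15.22 with No.10-3, 14.12 with 0.5 µM C-30 and 14.09 with 2 µM C-30. No.10-3 stood apart, and the C-30 arrays lay just under vehicle. The difference with No.10-3 was 0.92 (1.89-fold), under the 2-fold threshold, and 3.69% of the genes above background on both arrays had a larger one. With C-30 the differences were -0.18 and -0.21, and 43.0% of such genes were lower still at 2 µM. The C-30 differences shrank to -0.06 at 0.5 µM with a correction for signal and to -0.03 at 2 µM with quantile-normalized values.

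ZEB1 (chromosome 10, 31318417 to 31529804), the zinc finger repressor of epithelial genes, had signals of 6.82 with vehicle, 8.11 with No.10-3, 8.28 with 0.5 µM C-30 and 7.26 with 2 µM C-30. The 2 middle conditions were high, and 2 µM C-30 fell between them and vehicle. The differences were 1.29 (2.45-fold), 1.46 (2.75-fold) and 0.45, and they are inexact because the vehicle signal lay under background, at percentile 93.1 of the negative controls. On the same arrays where ZEB1 was highest, CLDN1 and EPCAM were higher than vehicle, EPCAM by 0.69 and 0.48. OCLN was lower there by less than 1.5-fold. The vehicle signal of EPCAM was at the background level, so a fall of it could not have been measured. CDH1 and CLDN4 were within background on every array, so their differences, including those of CLDN4 past 2-fold, do not measure a fall.

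ZEB2 (chromosome 2, 144384081 to 144520119), the paralog of ZEB1, gave 5.00 with vehicle, 4.67 with No.10-3, 5.30 with 0.5 µM C-30 and 5.58 with 2 µM C-30. SNAI2, the gene of the repressor SLUG, gave 3.55, 3.70, 3.64 and 4.44 in the same order, so that the array of 2 µM C-30 was the highest for both. CDH2 (chromosome 18, 27932879 to 28177130), the N-cadherin gene, gave 4.10, 3.61, 3.77 and 3.44. All 3 were within background, and SNAI2 and CDH2 were under the floor on every array and entered no count.

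**Figure D3:**
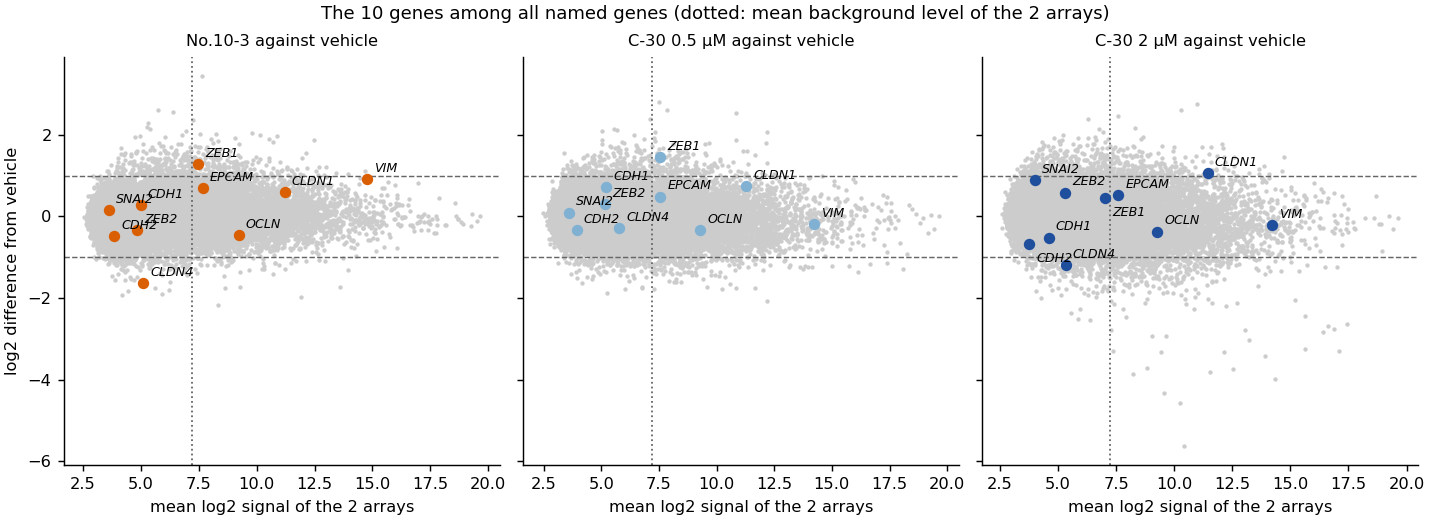
Log2 difference from vehicle (vertical axis) against the mean log2 signal of the 2 arrays (horizontal axis) for all 17687 named genes in grey and the 10 genes in colour, 1 panel per treated array; dashed lines mark 2-fold and the dotted line the mean background level of the 2 arrays. VIM with No.10-3 at 0.92 and CLDN1 with 2 µM C-30 at 1.07 lie above most genes that were above background on both arrays. Of such genes, 3.69% and 2.30% had a larger difference. CLDN4 lies left of the dotted line, in the range of the negative controls.

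The doses of C-30 and the 2 compounds were next set side by side. Between 2 and 0.5 µM C-30, CDH1 differed by -1.23 and ZEB1 by -1.02, so that 2 of the 8 genes past the floor passed 2-fold, beside 3.57% of 9282 genes, and the median of the 8 was -0.04 against -0.03 for all. CDH1 was within background and only just reached the floor, at 5.57 on the array of the lower dose. ZEB1 was above background on both arrays, 1.32% of 5382 such genes had a lower difference, and it passed 2-fold by a narrow margin, being -0.99 after a correction for signal and -0.98 with centred arrays. CLDN4 differed by -0.91, SNAI2 by 0.80 and CLDN1 by 0.32, while EPCAM, OCLN and VIM differed by 0.03, -0.04 and -0.03.

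2 µM C-30 and No.10-3 at 5 µM were not given at matched doses, so their values are only set beside each other. VIM differed by -1.13 (14.09 with C-30, 15.22 with No.10-3) and was the only one of 6 genes past the floor to pass 2-fold, beside 8.04% of 9311 genes, and 2.85% of the 5413 genes above background on both arrays were lower still. That difference was -0.97 with centred arrays, -0.95 with quantile-normalized values and -0.94 with a correction for signal, each under 2-fold. These settings moved the median of all genes in this comparison by 0.17, 0.13 and 0.12. ZEB2 differed by 0.92, within background, ZEB1 by -0.85, CLDN1 by 0.47, EPCAM by -0.18 and OCLN by 0.08, and the median of the 6 was -0.05 against -0.12 for all genes past the floor.

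Other genes of the junctions were examined from lists. Counts past 2-fold in these lists stand beside the shares given above for all genes past the floor, 5.68% with No.10-3, 6.17% with 0.5 µM C-30 and 10.8% with 2 µM C-30, at which a list of about 10 genes would hold 1 or none. Of 14 measured adherens junction and desmosome genes, 12 passed the floor with each treatment. With No.10-3 1 of them passed 2-fold upwards, DSC2, a desmosomal cadherin, with signals of 7.80 with vehicle, 8.85 with No.10-3, 7.93 with 0.5 µM C-30 and 8.12 with 2 µM C-30. With 2 µM C-30 1 passed it downwards, the nectin gene NECTIN1, with 11.89 with vehicle, 11.58 with No.10-3, 11.12 with 0.5 µM C-30 and 10.47 with 2 µM C-30. The list medians were 0.003, -0.12 and -0.31 for No.10-3 and the 2 doses of C-30, beside 0.05, -0.04 and -0.06 for all genes. Both genes were above background on every array, and NECTIN1 was lower on each treated array.

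Of 13 measured tight junction and polarity genes, none of the 9 or 10 past the floor passed 2-fold with any treatment, a count that does not set the list apart from all genes, and the medians were 0.18, -0.13 and 0.10. TJP1, which encodes the scaffold ZO-1, gave 13.57 with vehicle, 13.27 with No.10-3, 13.12 and 12.59 with 0.5 and 2 µM C-30. PARD6B, a polarity complex subunit, gave 9.06, 8.34, 8.88 and 9.46, and MARVELD2, the gene of tricellulin, 6.65, 7.20, 6.82 and 6.39, of which only the No.10-3 value was above background. TJP1 was lowest with 2 µM C-30, at -0.98, the array on which CLDN1 was highest.

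Among 22 other claudin genes and relatives, 18 were within background on all arrays, and 4, 4 and 5 passed the floor, with medians of 0.12, 0.02 and 0.70. The last was 0.12 with no floor, and with the floor at the 75th percentile of signals the median with 0.5 µM C-30 was 0.33. The only one past 2-fold was CLDN11, a claudin known from myelin and testis, with signals of 8.46 with vehicle, 7.26 with No.10-3, 7.69 with 0.5 µM C-30 and 7.67 with 2 µM C-30. It was above background on all arrays and differed from vehicle by -1.20, -0.77 and -0.79, so CLDN11 was lower on the treated arrays while CLDN1 was higher. The claudin gene CLDN12 and its relative CLDND1, also above background on all arrays, were higher on every treated array as CLDN1 was. The differences were 0.13, 0.63 and 0.55 for CLDN12 and 0.33, 0.33 and 0.80 for CLDND1. Of 18 other cadherin genes, 4, 5 and 6 passed the floor, none past 2-fold, with medians of -0.04, 0.43 and 0.07. CDH24 alone was above background, with 9.21, 8.96, 9.02 and 8.88 for vehicle, No.10-3 and the 2 doses of C-30.

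Epithelial regulators and surface genes were mostly within background, 18 of the 22 measured, and ESRP1 and GRHL2, a splicing factor and a transcription factor of epithelia, were among these with 4.27 and 4.53 on the vehicle array. None of the 6, 5 and 5 genes past the floor passed 2-fold, with medians of 0.48, -0.39 and 0.66. For the 3, 2 and 3 genes above background on both arrays the medians were 0.23, -0.40 and -0.06. LAD1, a basement membrane filament gene, gave 8.62 with vehicle, 9.12 with No.10-3, 8.70 with 0.5 µM C-30 and 9.54 with 2 µM C-30. ERBB3, a receptor of the EGF receptor family, gave 8.03, 7.96, 7.15 and 7.36, and the transcription factor gene KLF5 6.89, 7.35, 6.50 and 7.55. ERBB3 was lower than vehicle with both doses of C-30. LAD1 was higher by 0.91 with 2 µM C-30 but by only 0.07 with 0.5 µM C-30.

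Of 14 other transcription factors of the transition, 12 were within background on all arrays, SNAI1 (5.27 with vehicle) and TWIST1 (4.85) among them. Of the 6, 5 and 6 past the floor, LEF1, a partner of beta-catenin, passed 2-fold with No.10-3, from 5.13 to 6.31, within background. The medians were 0.45, 0.29 and 0.34, but 0.11, 0.11 and 0.06 with no floor. For the 2 genes above background on both arrays they were 0.35, 0.03 and -0.00088, so the C-30 medians rest on genes near background. Of 14 measured ZEB corepressors and genes of ZEB stability, 12 passed the floor, with medians of 0.14, -0.21 and -0.05, and 1 passed 2-fold with every treatment. It was ATM, the DNA damage kinase, with 7.75 with vehicle, 9.03 with No.10-3, 9.33 with 0.5 µM C-30 and 8.84 with 2 µM C-30. All 3 differences, 1.28, 1.59 and 1.10, were between arrays above background. The last of these lists holds miRNA loci known to target ZEB1 and ZEB2, of which 1 of 8 was measured, MIR205, with 6.83, 7.06, 6.79 and 7.45, above background with 2 µM C-30 alone.

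Mesenchymal structural and matrix genes had 11, 11 and 12 of 26 measured members past the floor, with medians of 0.23, -0.38 and -0.19. For members above background on both arrays, 5, 5 and 4 genes, the medians were 0.29, -0.47 and -0.96. None passed 2-fold with No.10-3 or with 0.5 µM C-30, and with 2 µM C-30 1 of the 12 passed it upwards and 2 downwards, beside 4.67% and 6.15% of all genes past the floor. The lower ones were FSCN1, which encodes the actin bundler fascin, with 12.56 with vehicle, 12.87 with No.10-3, 12.09 with 0.5 µM C-30 and 11.20 with 2 µM C-30, and the collagen gene COL6A1, with 9.06, 8.50, 8.07 and 7.89. The higher one was TAGLN, an actin-binding protein of smooth muscle, with 5.13, 5.49, 5.93 and 6.15, within background throughout. FSCN1 and VIM were both highest with No.10-3, while with 2 µM C-30 FSCN1 differed from vehicle by -1.35 and VIM by -0.21.

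TGF-beta is a classical inducer of the transition, acting through its receptors and SMAD proteins. Of 15 measured genes, 11, 11 and 12 passed the floor, with medians of 0.06, -0.54 and -0.06. For the 7, 6 and 7 genes above background on both arrays they were 0.06, -0.27 and -0.05. With no floor, the median with 0.5 µM C-30 was -0.37. The ligand gene TGFB1 gave 10.26 with vehicle, 10.32 with No.10-3, 9.34 with 0.5 µM C-30 and 9.07 with 2 µM C-30. TGFBR2, the type II receptor gene, gave 9.71, 9.47, 9.07 and 8.56. Both passed 2-fold with 2 µM C-30, at -1.18 and -1.15, and LTBP1, of a latent TGF-beta binding protein, did so with 0.5 µM C-30 at -1.12, within background. The signal of TGFB1 with No.10-3 lay within 0.06 of vehicle, and both C-30 arrays lay lower.

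**Figure D4:**
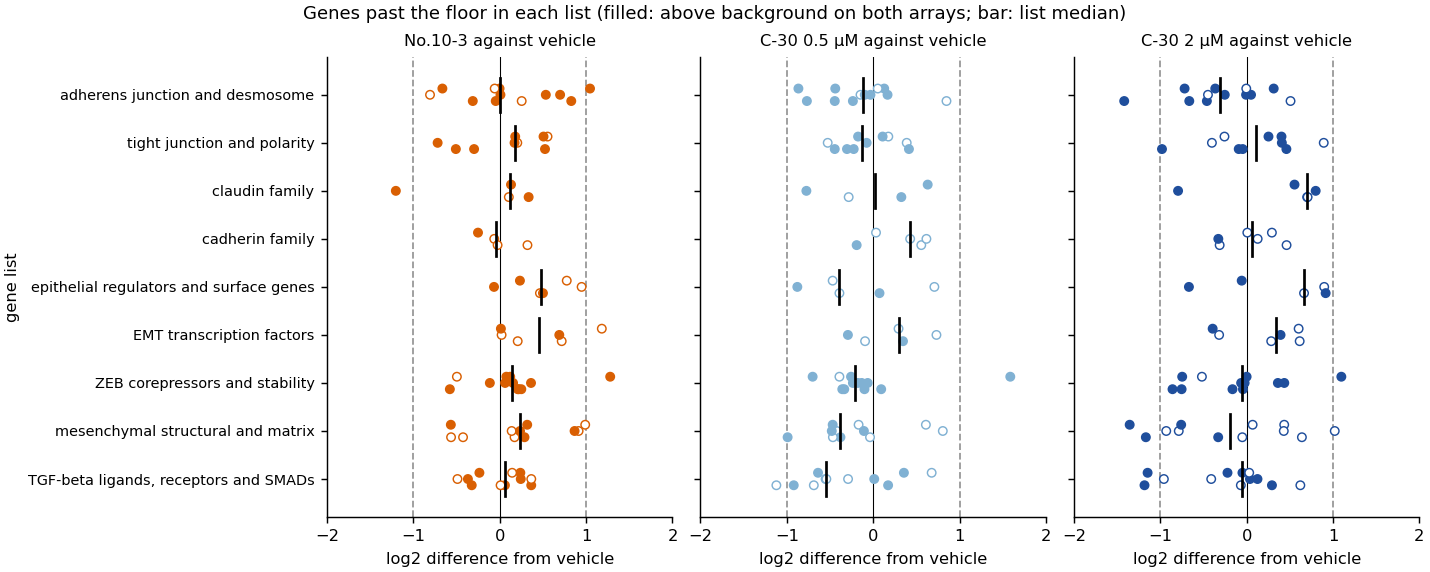
Log2 difference from vehicle (horizontal axis) of the genes past the floor in 9 lists (vertical axis), 1 panel per treated array; filled points are above background on both arrays, open points are not, black bars are list medians and dashed lines mark 2-fold. Few points pass 2-fold, among them ATM of the ZEB corepressor and stability list in each panel (1.28, 1.59 and 1.10) and TGFB1, TGFBR2, FSCN1, COL6A1 and NECTIN1 on the low side with 2 µM C-30.

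For the 3 genes with the widest range of signal among those above background on at least 1 array, the genes of most similar course were sought among 6416 genes above background somewhere, by the root mean square difference between 4 mean-centred log2 values. Nearest to ZEB1 was EIF2AK4, a kinase of the amino acid response, at 0.08, with signals of 6.49, 7.72, 7.72 and 6.84 for vehicle, No.10-3 and the 2 doses of C-30, followed by RIF1 and DPY19L4 at 0.11 each. Nearest to VIM was MCM6, a subunit of the replicative helicase, at 0.06, with 7.47, 8.37, 7.43 and 7.31, then EIF4EBP2 and ARHGEF39 at 0.07 each. Nearest to CLDN1 were DDIAS at 0.02, the amino acid transporter gene SLC38A2 at 0.03, with 13.12, 13.66, 13.88 and 14.15, and STXBP3 at 0.03. Some of these matches rest on values under background. DDIAS and STXBP3 were under it with vehicle and No.10-3, EIF2AK4 with vehicle and 2 µM C-30, and RIF1 with vehicle. With 4 arrays and this many genes, close matches are easily found, so these names describe likeness alone.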

How the data were processed

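Per the labels' protocols, biotin was the label and total RNA of DU145 cells the input, 1 array for each of 4 conditions. The authors deposited signals for which the submitters' processing notes name RMA and Affymetrix Expression Console 1.3.0. The log base was inferred from the values, although their maximum, 19.9, is high for log2. The sources used here give no genome build or probe annotation for that step. Among 24351 probe sets, 17709 were given 1 gene symbol by the platform annotation, 0 had several and 6642 had none. All 17709 matched RefSeq (GRCh38.p14) by Entrez identifier and gave 17687 genes, several probe sets of a gene being averaged.

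Differences between 2 arrays were taken for 5 comparisons, and a gene was counted at a log2 difference of 1 when its higher signal reached the median of named probe sets. Alternatives were a 1.5-fold threshold, a higher floor (75th percentile) or none, named genes quantile-normalized, differences corrected for mean signal by lowess (fraction 0.3), centred arrays, the brightest probe set and the series value table, which differed from the single files by at most 5e-05. With 1 array per condition there is no error estimate, so precision is limited by how few arrays there are. Other named genes are, per list, those past 2-fold against vehicle, or else up to 3 with the widest range above background; ESRP1, GRHL2, SNAI1, TWIST1, CLDN12 and CLDND1 were added after their values were seen. The 10 genes and the lists were chosen with earlier results of these data known. Counting was tested on simulated data. Python 3.11.15, numpy 2.4.6, pandas 2.3.3, statsmodels 0.14.6 and matplotlib 3.10.9 were used.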

Additional observations from a re-analysis of the deposited data

How the results depend on the processing

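The number of the 10 genes past 2-fold changed under these settings. With a threshold of 1.5-fold it was 5 with No.10-3 (2 at 2-fold), 3 with 0.5 µM C-30 (1 at 2-fold) and 3 for 2 µM C-30 against No.10-3 (1 at 2-fold). With a floor at the 75th percentile (7.90) it was 1 with No.10-3, 1 with 2 µM C-30 and 1 between the doses of C-30, in each case against 2, because CLDN4, or CDH1 between the doses, no longer entered. Between the doses it was also 1 with the lowess correction and 1 with centred arrays, where ZEB1 stood at -0.99 and -0.98. For 2 µM C-30 against No.10-3 it was 0 with quantile-normalized values and 0 with the lowess correction, where VIM stood at -0.95 and -0.94; with centred arrays it stayed at 1, but through ZEB2 at 1.08, within background, in place of VIM at -0.97. The other 30 counts were within 1.5 times the reported ones. No difference of the 10 genes from vehicle changed sign under the 5 settings that alter the values, and between the doses VIM, at -0.03, changed sign under 3 of them. In that comparison with No.10-3, centring took the share of 2-fold genes that were higher from 30.04% to 58.7%. List medians near 0 changed sign under some settings: adherens junction genes with No.10-3 (down to -0.10 with centred arrays), ZEB corepressors with 2 µM C-30 (up to 0.01) and TGF-beta genes with No.10-3 and with 2 µM C-30 (-0.04 and 0.01 with centred arrays). With another floor, epithelial regulators turned to -0.02 with No.10-3 and -0.07 with 2 µM C-30, claudins to -0.05 and cadherins to -0.19 with 0.5 µM C-30, and cadherins to -0.33 and other transcription factors to -0.00088 with 2 µM C-30. The higher floor also took mesenchymal structural genes from -0.19 to -0.96 with 2 µM C-30. Signal over background limits CDH1, CLDN4, CDH2, ZEB2 and SNAI2 on every array and ZEB1 with vehicle. No paired analysis was possible because each condition has 1 array.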

Other observations

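Between 2 µM C-30 and No.10-3, at unmatched doses, 2 of the 4 epithelial keratins passed 2-fold downwards, KRT19 at -1.38 and KRT8 at -1.30, while KRT18 differed by -0.94 and KRT7 by 0.15. Of 11 adherens junction and desmosome genes past the floor, 2 passed it downwards, the desmoplakin gene DSP at -1.29 and NECTIN1 at -1.11, and of 10 tight junction and polarity genes 1 passed it upwards, PARD6B at 1.12. Of all genes past the floor 8.04% passed 2-fold, and 30.04% of these were higher with C-30, or 58.7% with centred arrays, so the direction of such counts depends on the scaling. The genes named here were picked after their values were seen. Of 12 mesenchymal structural and matrix genes past the floor, 3 passed 2-fold downwards, FSCN1 at -1.67, CD44 and MMP14, and 1 passed it upwards, CALD1. MMP14 and CALD1 were within background on all arrays. Of 12 TGF-beta genes past the floor, 1 passed 2-fold, TGFB1 at -1.24. CD44, a hyaluronan receptor used as a mesenchymal and stem cell marker, gave 7.46 with vehicle, 8.33 with No.10-3, 7.36 with 0.5 µM C-30 and 6.68 with 2 µM C-30, the last under background, and its difference of -1.65 is inexact. The median of all genes in this comparison was -0.12.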
